A study of Homo sapiens with 6 samples.

Results

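SR proteins, hnRNPs and core splicing factors were followed as a group of 91 genes out of the 19823 in the table. The members were taken by name, as every row called SRSF, TRA2, HNRNP, SF3A, SF3B or PRPF with its number or letters. The rule uses no measured value, but the group was chosen with earlier results of these data known. They comprise 56 genes that encode the proteins themselves, 3 copies that the annotation calls coding (HNRNPA1L2, HNRNPA1P48 and HNRNPCL1) and 32 pseudogenes. All 56 genes, the 3 copies and 25 of the pseudogenes had more than 5 reads in at least 4 samples and were tested, 84 members in all. The 56 genes fall into 12 SR proteins, 2 TRA2 proteins, 7 hnRNPs of the A/B/D type, 2 of the C and R type, 4 of the F/H type, 7 of the K, L, M and U type, 9 SF3A and SF3B subunits and 13 PRPF factors.

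SR proteins carry a domain rich in arginine and serine. They bind enhancers in exons and recruit early spliceosome components to nearby splice sites, and TRA2 proteins act in a similar way. The hnRNPs coat nascent pre-mRNA and often oppose SR proteins at the same exons, besides acting in export, transport and stability of mRNA. SF3A and SF3B are the U2 snRNP subunits that recognise the intron branch site, while most PRPF factors belong to the U4/U6.U5 tri-snRNP or to the complexes that activate the spliceosome. In neurons these proteins shape large programmes of alternative splicing, and SR and hnRNP genes commonly adjust their own mRNA through exons that lead to its decay. Gene-level counts do not resolve such isoforms.

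The samples were glutamatergic excitatory neurons differentiated with doxycycline from the human iPSC line WTc11 (induced pluripotent stem cells) in its parental form without added β2-adrenergic receptor. Every sample carried a knockdown of RBM12, an RNA-binding protein, by CRISPR interference, in which a catalytically dead Cas9 fused to a repressor domain silences the targeted promoter. The untreated group had 3 samples and the isoproterenol group 3, isoproterenol being a β-adrenergic agonist that raises cAMP. Its dose and time are not in the labels. Neurons with a control guide were not analysed here, so the values describe the response to isoproterenol within the knockdown and do not bear on what RBM12 itself does. The labels do not say whether replicates came from separate cultures, so the p-values do not reach beyond these samples. The tests also share variance between genes, so a gene's SE or p does not measure the spread of its own samples alone.

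Values are normalized counts, that is reads per gene divided by 1 size factor per sample, and a log2 fold change is the isoproterenol mean minus the untreated mean on the log2(value + 1) scale. Between 18116816 and 21488793 reads were recovered per sample. RBM12 itself stood at 244, 279 and 267 normalized counts in untreated and at 195, 238 and 233 in isoproterenol replicates 1 to 3. It was thus lower in all 3 pairs without overlap (log2 fold change -0.25), with an adjusted p of 0.607 in limma and 0.131 with the replicate block, and the part of this difference in the results was not tested. Transcripts that respond to cAMP marked the treatment in all 3 pairs: FOS stood at 536, 648 and 679.6 in the untreated and at 1219, 1649 and 2338 in the isoproterenol replicates, and FOSB stood at no more than 10.3 untreated and between 58.9 and 268 with isoproterenol. The 12 neuronal markers (SLC17A6, MAP2, STMN2 and others) summed to between 182090.4 and 186406 normalized counts in untreated and between 181838 and 187631 in isoproterenol samples. Of other cell types, 3 of 6 GABAergic markers had summed levels of 55.3 to 59.99 untreated and 66.9 to 79.0 with isoproterenol. The 2 of 6 astrocyte markers analysed (AQP4 and S100B) stood at 159.8 to 175 and 134 to 157, the 2 of 6 proliferation markers at 396 to 407 and 406 to 464, and the 2 of 7 pluripotency markers at 19.4 to 19.8 and 14.4 to 28.8. The other listed markers of these types, among them GFAP, DLX1, NANOG and MKI67, had no row under those names, so no level can be given. These sums are small beside those of the neuronal markers, and their part in the results was not tested.

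With isoproterenol, 6 of the 84 tested members (7.14%), 4 of them hnRNPs, were called lower in a limma fit that pairs same-numbered samples. Their isoproterenol means were 6.79% to 12.1% under their untreated means, and none passed without the pairing. That paired fit called 4.88% of all genes, 2.06% as lower and 2.82% as higher, and called 3.13% as lower among the genes that averaged 100 normalized counts or more. No SF3 or PRPF gene passed in limma either way. The 20 coding hnRNP genes summed to 98145, 96927 and 95079.6 in the untreated samples, in the order of their replicate numbers, and to 92637, 93724 and 92611 in the isoproterenol samples, a mean difference of -3.85%. Each isoproterenol sum lay under all 3 untreated sums. The 4 called hnRNPs are part of these sums, which are thus not separate from their calls. The 22 SF3 and PRPF genes summed to 40189, 39905 and 39401 and to 39479.8, 40106 and 39629 in the same order, and these groups overlapped. In bulk RNA of this kind, fewer cells of a type and less RNA per cell cannot be told apart.

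No member passed an adjusted p of 0.05 in limma without regard to replicate number, where 3 of 18130 genes did (0.0165%). The edgeR and DESeq2 fits without the replicate number also called 0 members. At an unadjusted p under 0.05 the same limma fit held 9 of 84 members (10.7%), against 7.68% of all genes. Of these, 8 were lower (9.52%, against 3.29% of all genes) and 1 was higher (1.19%, against 4.39%). Among the genes that averaged 100 normalized counts or more, 9.0% had such a p, 4.17% lower and 4.85% higher. The smallest adjusted p of a member was 0.273, for SRSF5.

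Within pairs of same-numbered samples, 20 of the 84 members were lower with isoproterenol in all 3 pairs (23.8%) and 7 were higher, against 17.6% and 18.5% of all genes. Of the 11587 genes that averaged 100 or more, 2403 (20.7%) were lower in every pair and 2346 higher. Among the 20 coding hnRNPs, 10 were lower in every pair and 1, HNRNPK, was higher. A limma fit with the replicate number as a block called 6 members, all lower: SRSF5, TRA2B, HNRNPA1, HNRNPA2B1, HNRNPD and HNRNPM. Without the block none of the 6 was called, so the calls depend on that fit. Each SE given for it draws on variance shared between genes and is not the spread of a gene's own 3 pair values. Over the 11587 genes that averaged 100 or more, the deviations of same-numbered samples correlated at 0.269, 0.493 and 0.388, whereas over the 60 members among them the values were -0.092, -0.155 and -0.121. Same-numbered samples thus deviated together over the whole table and not over the members.

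The 6 calls lie among members with many reads, and paired limma calls were more common at high counts over the whole table. That fit called 7.16% of the genes that averaged 100 or more, against 4.88% of all genes. All 6 belong to the 28 coding members with the higher mean count, which is not a level per length, and 0 of the 28 with the lower mean count were called in the paired limma fit, where edgeR with the same block called 1 (PRPF38A) and DESeq2 0. At an unadjusted p under 0.05 in the unpaired fit those 28 held 1 gene, also PRPF38A.

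**Figure D1:**
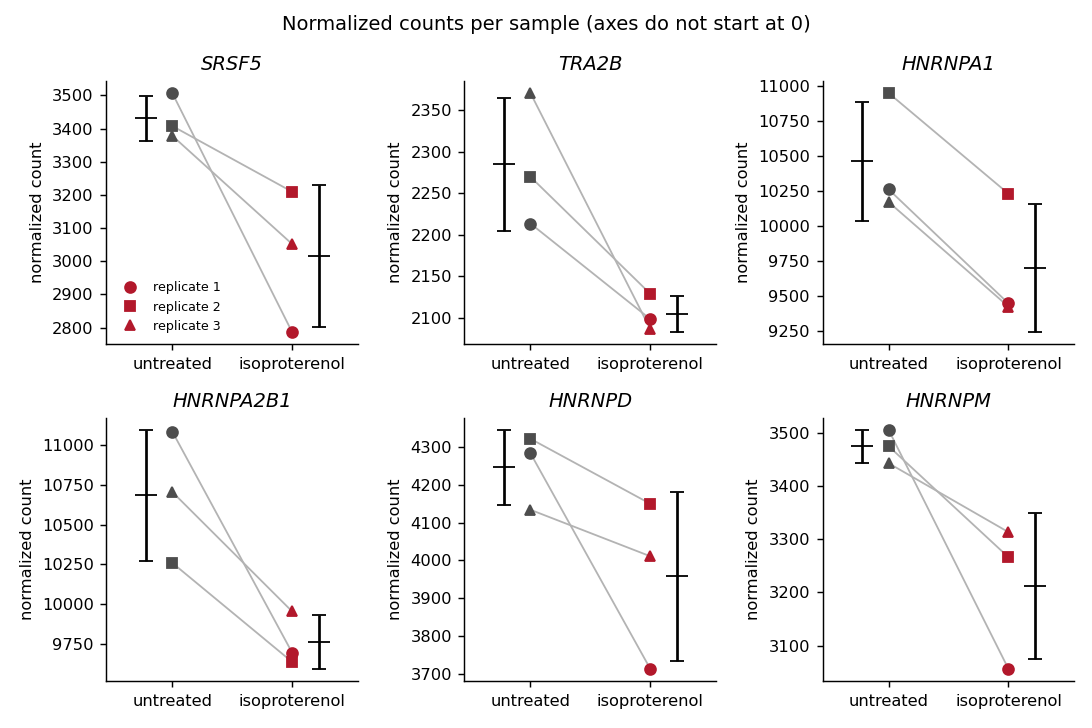
Normalized counts of the 6 members called in the paired fit, with untreated samples in grey and isoproterenol samples in red, lines joining same-numbered replicates, and black bars giving the mean ± SD (n = 3) of each group. Every line falls, and in SRSF5, TRA2B, HNRNPA2B1 and HNRNPM the 3 isoproterenol values lie under all untreated values, while in HNRNPA1 and HNRNPD the groups overlap.

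Among SR proteins, SRSF5 stood apart. SRSF5 (chromosome 14, 69726900 to 69772005, plus strand, GRCh38) encodes an SR protein that binds exonic enhancers. Its level in untreated replicates 1 to 3 was 3507, 3408 and 3379 normalized counts, and in isoproterenol replicates 1 to 3 it was 2786, 3209.5 and 3052. The groups did not overlap, and replicate 1 showed the widest gap. Its log2 fold change was -0.19 over 3 pairs, with pair values of -0.33, -0.09 and -0.15. The paired fit gave an SE of 0.033 from variance shared between genes, which is not the spread of these pair values. The paired interval of -0.25 to -0.12 left out -0.33 and -0.09. The adjusted p was 3.15e-05 in the paired limma fit and 0.0484 in DESeq2 with the block. Without pair 1 the adjusted p of the paired limma fit was 0.0716, no longer under the threshold. No gene annotated in GENCODE overlaps its exons.

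Without SRSF5, the other 11 SR genes summed to a mean of 20156 normalized counts untreated and 20179.8 with isoproterenol, a split made after the values were seen, so that sum was not lower. These 11 did not pass the test in either fit, and their log2 fold changes ran from -0.08 (SRSF1) to 0.16 (SRSF12). SRSF3, the smallest of the family and the SR gene with the highest mean count, stood at 3500.2, 3351 and 3452 untreated and at 3399.6, 3374 and 3335 with isoproterenol. Its groups overlapped, with a 95% interval of -0.09 to 0.03 for the log2 fold change in the paired fit. SRSF1, the founding member of the family, stood at 798, 813 and 776 and at 769, 731 and 754, a log2 fold change of -0.08 with an adjusted p of 0.512 in the paired fit. Its groups did not overlap, yet the interval of -0.19 to 0.03 includes 0. An unnamed protein-coding gene on the same strand covers 32.7% of its exonic length, so its reads are uncertain.

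SRSF12 gave the largest positive difference of any coding member. It encodes a regulator that can counteract other SR proteins. It stood at 679, 569.9 and 571 in untreated and at 681, 684 and 659.6 in isoproterenol replicates. Untreated replicate 1 lay inside the isoproterenol range, and the pair values were 0.00, 0.26 and 0.21. The log2 fold change of 0.16 had an adjusted p of 0.651 unpaired and 0.136 paired, and without untreated replicate 1 it was 0.24. SRSF8, an SR gene derived from SRSF2, stood at 2699, 2624 and 2645 and at 2707, 2819.7 and 2739, with groups that did not overlap and an adjusted p of 0.463 in the paired fit. The reads of SRSF2 and SRSF9 are less certain, because 27.7% and 43.6% of their exonic length lies opposite MFSD11 and GATC and the sources used here do not say whether counting used the strand.

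The TRA2 proteins are splicing activators that bind GA-rich exonic enhancers. TRA2B (chromosome 3, 185914558 to 185938103, minus strand) stood at 2214, 2270.0 and 2371 untreated and at 2098, 2129 and 2086 with isoproterenol. The 3 treated values lay close together under all untreated values. The log2 fold change over 3 pairs was -0.12, with a paired-fit SE of 0.036 from variance shared between genes. The adjusted p was 0.0334 in the paired limma fit. That call was lost without any 1 of the 3 pairs, with adjusted p-values from 0.0555 to 0.44, and DESeq2 with the block did not make it. TRA2A stood at 967, 857 and 862 and at 827, 829 and 880.1, groups that overlap, with a log2 fold change of -0.08 and an adjusted p of 0.497 in the paired fit.

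hnRNPs of the A/B/D type held 3 of the 6 calls and summed to 46135, 45496 and 45238 in untreated against 42901, 43688 and 43058 in isoproterenol replicates. All 3 treated sums lay under the untreated ones, by 5.28% of the mean. The mean sum went from 45623 to 43216, while HNRNPA1 went from 10459 to 9699 and HNRNPD from 4246 to 3958. With HNRNPA2B1, these called genes made up most of the difference, so the sum is not separate from their calls. HNRNPA2B1 (chromosome 7, 26171151 to 26201529, minus strand) encodes a packaging protein of pre-mRNA that also sorts mRNAs into dendrites. It stood at 11085, 10259.7 and 10706 untreated and at 9695, 9637 and 9954 with isoproterenol, 10684 ± 413 against 9762 ± 169 (mean ± SD, n = 3 each). The groups did not overlap. The log2 difference over 3 pairs was -0.13, with a paired-fit SE of 0.022 from variance shared between genes. The adjusted p was 7.55e-06 in the paired limma fit, 2.03e-06 in edgeR and 0.0233 in DESeq2 with the same block. Leaving out any 1 pair kept the limma call, with an adjusted p of at most 0.0211. NFE2L3 lies opposite 9.6% and CBX3 opposite 2.9% of its exonic length.

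HNRNPA1 (chromosome 12, 54280193 to 54287088, plus strand) encodes the classic repressor of exon inclusion. It stood at 10260.3, 10948 and 10169.8 untreated and at 9445, 10228 and 9423 with isoproterenol. Replicate 2 was the highest of each group, so the groups overlapped while the pair values, -0.12, -0.10 and -0.11, lay close together. Its log2 fold change over 3 pairs was -0.11, with a paired-fit SE of 0.022 from variance shared between genes. The adjusted p was 0.000188 in the paired limma fit and 0.0632 in DESeq2 with the block, and the limma call held without any 1 pair. HNRNPD (chromosome 4, 82352498 to 82374503, minus strand), which binds AU-rich elements and promotes mRNA decay, stood at 4283, 4321 and 4134 and at 3713, 4149 and 4011. Isoproterenol replicate 2 was above untreated replicate 3. The log2 fold change over 3 pairs was -0.10, with a paired-fit SE of 0.029 from variance shared between genes. The adjusted p was 0.0209 in the paired limma fit, 0.591 without pair 1 and 0.598 in DESeq2 with the block. Without isoproterenol replicate 1 alone the log2 fold change was -0.06.

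The remaining A/B/D genes did not pass. HNRNPAB stood at 2476, 2436 and 2341 and at 2276, 2303 and 2241, lower in every pair with groups that did not overlap and an adjusted p of 0.138 in the paired fit. HNRNPDL, the paralogue of HNRNPD, was also lower in every pair, with a log2 fold change of -0.07 and an adjusted p of 0.103. HNRNPA0 and HNRNPA3 were close to 0, at 0.02 and -0.02, with paired intervals of -0.03 to 0.07 and -0.07 to 0.03. NFE2L2 lies opposite 53.6% of the exonic length of HNRNPA3, whose value is uncertain for that reason.

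Of the other hnRNPs, HNRNPM (chromosome 19, 8444767 to 8489114, plus strand), which binds GU-rich RNA, stood at 3505, 3475 and 3443 untreated and at 3056, 3266 and 3313 with isoproterenol. The groups did not overlap, and isoproterenol replicate 1 was the lowest sample. The log2 difference over 3 pairs was -0.11, with a paired-fit SE of 0.031 from variance shared between genes. The adjusted p was 0.0134 in the paired limma fit and 0.4 without pair 1, and 0.48 in DESeq2 with the block. HNRNPU, a scaffold protein of chromatin and RNA, stood at 9083, 9056 and 8661 and at 8570.3, 8433 and 8520.0. Its groups did not overlap and its log2 fold change was -0.07, but its adjusted p of 0.0537 in the paired fit missed the threshold, as did that of HNRNPH3 at 0.0501. edgeR with the block called both, and COX20 lies opposite 15.6% of the exonic length of HNRNPU.

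HNRNPK, a KH-domain protein that binds C-rich RNA and the member with the highest mean count, did not pass in any fit. It stood at 10414, 10255 and 10064 untreated and at 10453, 10332 and 10275 with isoproterenol, with groups that overlapped and a paired interval of -0.03 to 0.06 on the log2 scale. HNRNPC, which covers uridine tracts of nascent RNA, stood at 5318, 5637 and 5195 and at 5035, 5475 and 5198, with a log2 fold change of -0.04 and an adjusted p of 0.492. HNRNPH1, which binds G tracts, stood at 4506, 4339 and 4246 and at 4436, 4239 and 4390.3. Its log2 fold change of -0.0026 had a paired interval of -0.06 to 0.05, and its sign turned with total-count scaling.

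**Figure D2:**
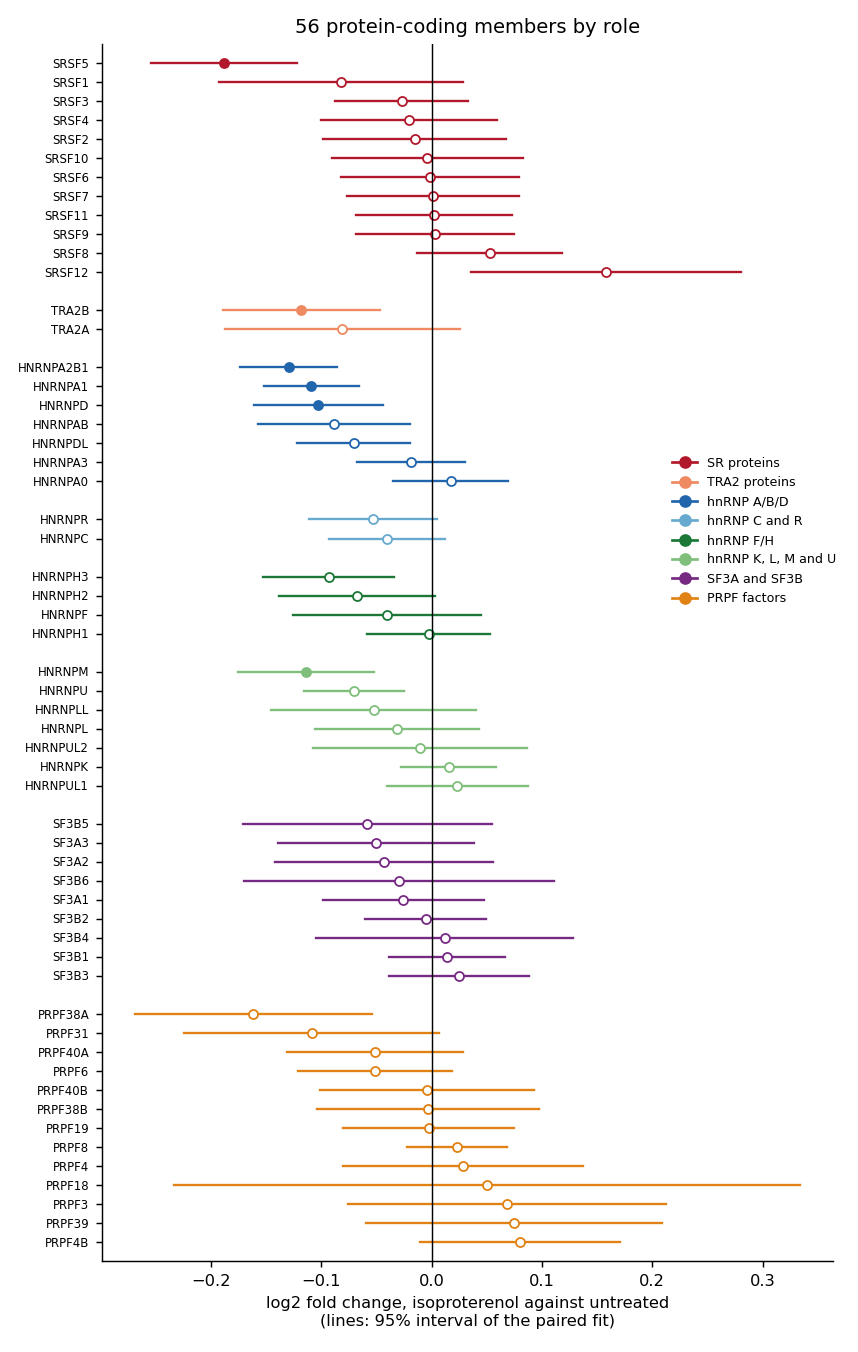
Log2 fold change (isoproterenol against untreated) of the 56 protein-coding members, grouped and coloured by role, with lines for the 95% interval of the paired limma fit and filled points for an adjusted p under 0.05 in that fit. The 6 filled points are all under 0, and the hnRNP points lie mostly to the left of 0 while SF3 and PRPF points lie on both sides.

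None of the core factors passed in limma. The 9 SF3A and SF3B genes had log2 fold changes from -0.06 to 0.03, none of them lower or higher in every pair and none called by limma, edgeR or DESeq2 with the block. At an unadjusted p under 0.05 in the unpaired limma fit this role held 0 genes. SF3B1, the branch-site subunit that is often mutated in blood cancers, stood at 5369, 5245 and 5134 untreated and at 5289, 5221 and 5387 with isoproterenol. These groups overlapped almost wholly, and the paired interval was -0.04 to 0.07. Over the 9 genes the paired intervals reached from -0.17 to 0.13, and the data leave room for changes within those bounds.

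Among the 13 PRPF genes, 7 had negative and 6 positive log2 fold changes. PRPF8, the large protein at the catalytic centre of the spliceosome, stood at 8207, 8247 and 8471 untreated and at 8439, 8344 and 8539 with isoproterenol. It was higher in each pair by at most 0.04, with a paired interval of -0.02 to 0.07. PRPF38A, needed for spliceosome activation, gave the largest negative difference of the role. It stood at 971, 899 and 832 and at 792, 865 and 757, lower in every pair with overlapping groups. Its log2 fold change was -0.16 with an adjusted p of 0.0634 in the paired limma fit and 0.0457 in edgeR with the block.

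The 4 largest positive differences of the PRPF genes did not pass the test. PRPF4B, a kinase that phosphorylates tri-snRNP proteins, stood at 1334, 1092 and 1188 and at 1306, 1248 and 1255, with overlapping groups. PRPF39, a U1 snRNP-associated factor, stood at 489, 541 and 491 and at 518, 522 and 561, and these overlapped as well. PRPF3, of the U4/U6 snRNP, stood at 436, 431 and 419 and at 453, 446 and 449. Its groups did not overlap and it was higher in every pair, yet its adjusted p in the paired fit was 0.723. PRPF18, a factor of the later catalytic step and the lowest of the 56 genes, stood at 150.4, 118 and 124 and at 101, 174 and 139.5, with overlapping groups. Its direction turned with a single sample, since without isoproterenol replicate 2 the log2 fold change was -0.13 in place of 0.05.

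Counted over roles, the groups did not overlap for 11 of the 84 tested members (13.1%) on the lower side and for 2 on the higher side (SRSF8 and PRPF3), against 6.19% and 6.73% of all genes. Of the 11587 genes that averaged 100 or more, 837 (7.2%) lay lower without overlap and 806 higher. Of the 11 members, 4 were pseudogenes with a mean under 100, and 7 were among the 56 coding members (12.5%). The median log2 fold change was -0.0528 over the 20 coding hnRNPs, -0.0097 over the 14 SR and TRA2 genes and -0.0040 over the 22 SF3 and PRPF genes. It was -0.0232 over all 56 and -0.0285 over the 84 tested members, beside 0.0015 over all 18130 genes and -0.0024 over the 11587 that averaged 100 or more. Within pairs 1, 2 and 3 the median of the 20 hnRNPs was -0.0814, -0.0399 and -0.0427. The hnRNP median was thus under that of all genes in each pair, by a few percent in linear terms, and no test of the list as a whole was made. The median of the 9 SF3 genes, -0.0258, changed sign with single samples and was 0.0132 without untreated replicate 2.

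**Figure D3:**
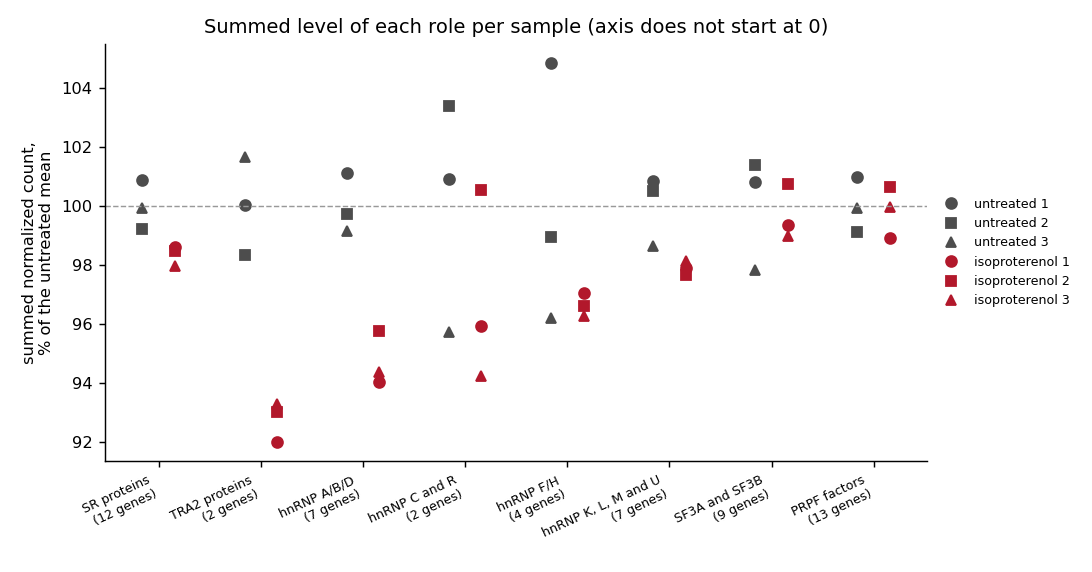
Summed normalized count of the protein-coding members of each role in each sample, as a percentage of the mean of the 3 untreated samples, with untreated samples in grey, isoproterenol samples in red and symbols marking the replicate number. For SR, TRA2, hnRNP A/B/D and hnRNP K, L, M and U genes the red points lie under all grey points, and for hnRNP C and R, hnRNP F/H, SF3 and PRPF genes they overlap. Without SRSF5 the other 11 SR genes summed to a mean of 20156 untreated and 20179.8 with isoproterenol. The TRA2, hnRNP A/B/D and hnRNP K, L, M and U sums also include called genes.

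Levels can be compared between genes only per length, here as the mean normalized count per kb of the canonical GENCODE transcript over the 6 samples. HNRNPK was the highest at 3565 per kb, followed by HNRNPA2B1 at 2818, HNRNPA1 at 2692, SRSF5 at 2155 and HNRNPH1 at 1946. PRPF18 was the lowest at 80.5, and SRSF1 stood at 145. Of the 4 highest genes on this scale, 3 were among the 6 calls and HNRNPK was not. TRA2B, with 525 per kb and rank 34 of 56, was the lowest of the 6. The canonical transcript need not be the one these neurons use, so the order is approximate.

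**Figure D4:**
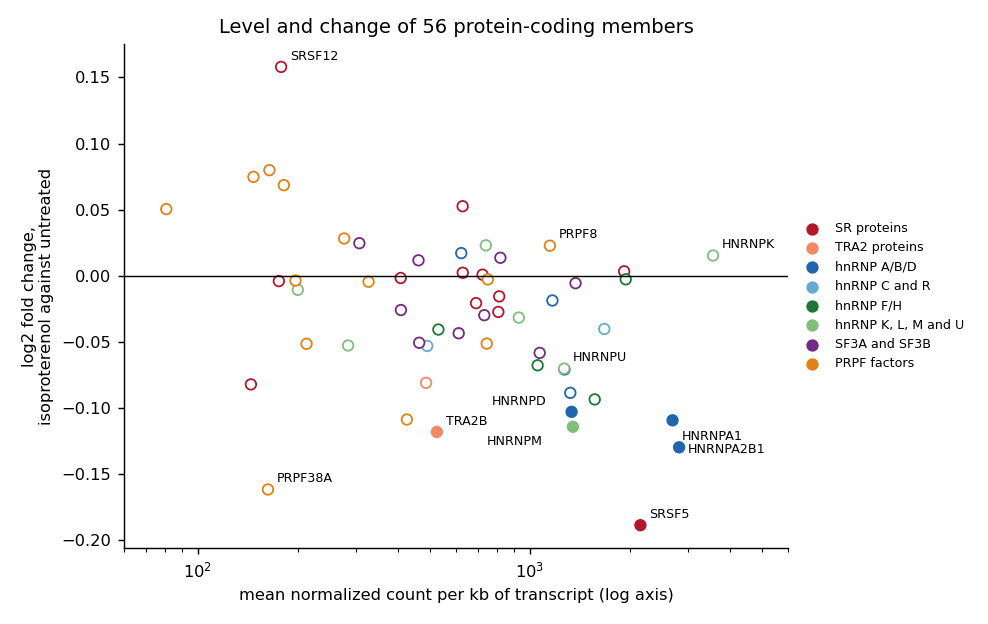
Mean normalized count per kb of transcript over the 6 samples (log axis) against log2 fold change (isoproterenol against untreated) for the 56 protein-coding members, coloured by role, with filled points for an adjusted p under 0.05 in the paired limma fit. The filled points lie from TRA2B at 525 to HNRNPA2B1 at 2818 per kb, and HNRNPK, the highest, lies near 0.

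The 3 coding copies and 32 pseudogenes derive mostly from HNRNPA1, HNRNPA3, HNRNPC and HNRNPK, and their reads can be reads of the parent gene placed on a near-identical copy, or the reverse. Only 4 of these 35 averaged 100 normalized counts or more. The 16 HNRNPA1 copies in the table summed to between 8.64% and 10.6% of the HNRNPA1 value in each sample, with untreated shares of 8.74%, 9.40% and 9.34% and isoproterenol shares of 8.74%, 8.64% and 10.6%. These groups overlapped. HNRNPA1P48 stood at 142, 153 and 149 untreated and at 107, 129 and 157 with isoproterenol, HNRNPA1P10 at 115, 126 and 91 and at 98.8, 94.6 and 106, and HNRNPCP2 at 129, 128 and 98.3 and at 112, 88.8 and 115. All 3 had overlapping groups, and limma called 0 of the 28 tested copies with or without the block, as did edgeR and DESeq2 with the block. At an unadjusted p under 0.05 in the unpaired limma fit they held 2, HNRNPA3P6 lower and HNRNPCP3 higher.

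Other genes of the splicing machinery, 127 in 5 lists, gave a mixed picture. The median log2 fold change was -0.0365 over 20 snRNP and Sm proteins, -0.0354 over 22 U2AF, branch-site and tri-snRNP factors and -0.0188 over 21 Prp19-complex and catalytic-step factors. It was -0.0110 over 40 other hnRNP-type and neuronal regulators and 0.025 over 24 SR kinases and SR-related proteins. The sums of snRNP and Sm proteins, from 16019 to 16325 untreated and from 15327 to 15867 with isoproterenol, also lay apart (-3.36%), as did those of U2AF, branch-site and tri-snRNP factors (-2.06%), while those of the other 3 lists overlapped. Of the 24 SR kinases and SR-related proteins, 10 were higher in every pair and 2 lower, against 18.5% and 17.6% of all genes. Unpaired limma, edgeR and DESeq2 called 0 of the 127. In unpaired limma 7 had an unadjusted p under 0.05 (5.5%, against 7.68% of all genes). Paired limma called 4 (3.15%), 1 lower and 3 higher, a share under the 4.88% of all genes.

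Those 4 have distinct roles. CLK1, a kinase that phosphorylates SR proteins and is itself stored as a pre-mRNA with retained introns, stood at 980.5, 836 and 940.3 untreated and at 1071, 1008 and 1104 with isoproterenol. The groups did not overlap. Its log2 fold change over 3 pairs was 0.21, with a paired-fit SE of 0.05 from variance shared between genes. The adjusted p was 0.00316 in the paired limma fit. LSM7, a subunit of the ring that binds U6 snRNA, stood at 1182, 1108 and 1098 and at 947, 931 and 1050.4, lower in every pair with an adjusted p of 0.00238. ELAVL4, a neuronal protein that stabilises mRNA, and PCBP4, a KH-domain protein, had log2 fold changes of 0.11 and 0.09 with adjusted p-values of 0.0195 and 0.0366 in the same fit. DESeq2 with the block called 0 of the 127.

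The promoters of the called members were read for the cAMP response element, since isoproterenol acts through cAMP and the element is where CREB binds. The full element TGACGTCA and the short element TGACG, on either strand as TGACG or CGTCA, were sought in the 250 bases before the RefSeq start (GRCh38.p14, the first listed window of each gene). The full element contains the short one on both strands. A window was found for 48 of the 56 coding members. The short element was present in 23 of them (47.9%), against 29.3% of 11007 tested protein-coding genes and 21.7% of all 27305 windows. The full element was present in 0 of the 48, against 2.83% of the tested protein-coding genes. By role the short element lay in 6 of 6 hnRNP A/B/D windows, 4 of 11 SR windows, 1 of 1 TRA2 window, 0 of 2 hnRNP C and R windows, 1 of 4 hnRNP F/H windows, 2 of 7 hnRNP K, L, M and U windows and 9 of 17 SF3 and PRPF windows. It lay in 4 of 5 windows of called members (80.0%) and in 19 of 43 of the others (44.2%), a difference that was not tested.

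Among the called members it was found in SRSF5, TRA2B, HNRNPA2B1 and HNRNPD and not in HNRNPM. HNRNPA1 had no window. The 30 bases around each match are printed for these members, which the paired limma fit called lower, and for CLK1, which it called higher. The members were chosen by that call, so their shared direction follows from the choice. Each stretch reads 5′ to 3′ on the strand of its gene, with the short element in capitals.
SRSF5, chr14:69767080-69767109, plus strand: cgtccccggaagTGACGtaggacgcgccct
TRA2B distal, chr3:185938130-185938159, minus strand: ggggcggggtcaCGTCActtcctgtgcggg
TRA2B proximal, chr3:185938016-185938045, minus strand: taaggagcgccgCGTCAcatccggtagagt
HNRNPA2B1, chr7:26200797-26200826, minus strand: tacgcgacggccTGACGtagcggaagacgc
HNRNPD, chr4:82374004-82374033, minus strand: ggcgcgctctcgCGTCAcgtgaccgggacg
CLK1, chr2:200864690-200864719, minus strand: acgcgctcgctgCGTCAtcagtgttttcga
The match began 50 bases before the start in SRSF5, 133 and 19 in TRA2B, 68 in HNRNPA2B1, 30 in HNRNPD and 49 in CLK1. CLK1 was the only higher gene printed, and ELAVL4 and PCBP4 were not. The short element lay in 29.3% of the windows of tested protein-coding genes, and its relation to direction was not tested. A match describes these letters and is not evidence of binding.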

How the data were processed

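The deposited table held a signal per gene and sample, namely read counts that the authors obtained with STAR (GRCh38) and featureCounts from poly(A)-selected directional libraries and divided by DESeq2 size factors. Tool versions, the annotation and the strand setting are not given in the sources used here. Every value above 0 in each column was a whole multiple of 1 step, to within 0.0001 of that step. That gave back whole reads for 100% of them. Of 19823 gene identifiers, 99.6% matched GENCODE 44, which supplied positions, lengths and overlaps.

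A gene was tested if at least 4 samples held more than 5 reads of it (18130 genes, 1693 removed). The test was limma (3.58.1, R 4.3.3) on log2(normalized count + 1), using a mean-variance trend with robust shrinkage. Tests were two-sided and adjusted with Benjamini-Hochberg over all genes. Same-numbered replicates were taken to pair the samples, because every pair's deviations correlated above 0.1 over the genes averaging 100 or more. Over the members among them the correlations were negative, so that reason does not hold for the members. A fit with the number as a block is given where it changes a call. Alternatives were edgeR 4.0.16 and DESeq2 1.42.0 on the recovered reads, other scalings, filters and pseudocounts, a GC and length correction, and leaving out samples. The tests were first checked on simulated counts, with pair effects built in and changes larger than those of the called members. That check cannot say whether the paired calls of the members are right. Members with per-sample values are those called in either limma fit, the 6 largest rises and 6 largest falls with a mean of at least 100, the highest of each role, and a few chosen after their values were seen (SRSF1, HNRNPAB, HNRNPU and TRA2A). Members and lists were chosen with earlier results of these data known.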

Additional observations from a re-analysis of the deposited data

How the results depend on the processing

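The 3 genes called without the block became 885 with the replicate block, 977 in edgeR with replicate block, 925 with the block and a GC and length correction, 21 in DESeq2 and 143 in DESeq2 with replicate block. Members called rose from 0 to 6 with the block, 9 (edgeR with block), 7 (GC and length correction with block) and 2 (DESeq2 with block), and other splicing genes from 0 to 4, 8, 11 and 0 in that order. Leaving out 1 sample at a time without the block gave 2 to 67 genes (67 without isoproterenol replicate 2), 0 to 1 members (SRSF5, without isoproterenol replicate 2) and a median of the coding members between -0.0297 and -0.0109. Leaving out 1 pair from the blocked fit, an alternative chosen after seeing the data, gave 531, 665 and 456 genes and 2, 7 and 5 members without pairs 1, 2 and 3, 1 to 2 other splicing genes and a median of -0.0365 to -0.0179. Without pair 1 HNRNPA1 and HNRNPA2B1 were the 2 members called. Signs turned for 5 named members, none of them called. HNRNPH1 was 0.0011 with total-count scaling, 0.0083 with the block and the GC and length correction, 0.0073 and 0.0128 without pairs 1 and 2, and between -0.022 and 0.0207 with single samples left out. PRPF8 was -0.0014 with that correction. PRPF18, 0.05 in the unblocked limma fit, was -0.2027 and -0.0078 without pairs 2 and 3 and between -0.133 and 0.259 with single samples left out, and SF3B1 (-0.0142 without pair 3, and between -0.0022 and 0.0301 with single samples left out) and HNRNPCP2 (-0.17 unblocked, 0.0063 without pair 2) turned as well. The causes were not tested, and the blocked fits that called members beyond the 6 added HNRNPH3, HNRNPU and PRPF38A (edgeR), HNRNPU (GC and length correction) and HNRNPH3 and PRPF38A (without pair 2). The 6 called members kept their sign under every alternative. Depth limits the pseudogenes most, since 31 of 35 copies had a mean under 100.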
